A study of Homo sapiens with 11 samples.

Results

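The secreted factors STC2, STC1, GDF15, VEGFA, ADM2 and ADM were followed in HEK293T cells treated with the compound A8, with ISRIB or with both. The genes were taken by symbol from the deposited count table, where all 6 were found among 27671 genes, and all 6 had enough counts to be among the 15591 genes tested. HEK293T derives from human embryonic kidney and expresses large T antigen of SV40. The groups were vehicle (DMSO, n = 3 libraries), DMSO with ISRIB (n = 2), A8 at 10 µM (n = 3) and A8 at 10 µM with ISRIB (n = 3), and all groups were the same line under 1 growth protocol, with no other agent or genetic change in the labels. The growth protocol names HEK293 and the sample labels HEK293T. The labels give no concentration for ISRIB or DMSO, and they give the treatment time as 8 h in one place and as 4 h in another. One replicate of DMSO with ISRIB was removed by the submitters for poor quality, and its remaining libraries are called a and b because their column numbers differ from those in the sample titles.

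The series title ties A8 to RIG-I, a sensor of viral RNA, and to the integrated stress response. In that response phosphorylation of the translation factor eIF2 slows protein synthesis while the transcription factor ATF4 is made, and ATF4 with partners such as CHOP induces genes of amino acid supply and a set of secreted proteins. ISRIB acts on eIF2B, the exchange factor of eIF2, and blunts the response. The stanniocalcins STC1 and STC2 are secreted glycoproteins, and STC2 inhibits the protease PAPPA, which frees insulin-like growth factors. GDF15 signals through GFRAL and RET in the brainstem and lowers appetite. VEGFA drives the growth of blood vessels through KDR, with FLT1 and the neuropilins as further receptors. Adrenomedullin (ADM) and adrenomedullin 2 (ADM2, also called intermedin) are amidated peptides that act through CALCRL paired with a RAMP protein. VEGFA and ADM are also well-known targets of hypoxia-inducible factors.

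Promoter sequence of STC2, ADM2 and ADM is shown because STC2 and ADM2 had their highest levels with A8 and their lowest with ISRIB alone, while ADM did not. Each run is the 250 bases before the RefSeq start in GRCh38.p14, 5′ to 3′ on the strand of the gene, namely chr5:173328415-173328664 on the minus strand for STC2, chr22:50481293-50481542 on the plus strand for ADM2 and chr11:10304823-10305072 on the plus strand for ADM. Capitals mark matches to any motif searched.
STC2: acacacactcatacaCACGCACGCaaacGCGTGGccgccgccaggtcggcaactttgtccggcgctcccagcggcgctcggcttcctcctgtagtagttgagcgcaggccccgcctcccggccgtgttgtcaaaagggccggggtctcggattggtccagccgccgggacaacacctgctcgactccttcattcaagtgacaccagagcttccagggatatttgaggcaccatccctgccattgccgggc
ADM2: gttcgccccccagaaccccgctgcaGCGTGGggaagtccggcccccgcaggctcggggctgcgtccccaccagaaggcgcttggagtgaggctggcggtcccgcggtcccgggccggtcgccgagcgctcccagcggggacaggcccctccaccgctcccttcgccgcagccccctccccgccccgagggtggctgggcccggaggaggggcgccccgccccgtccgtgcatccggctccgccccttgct
ADM: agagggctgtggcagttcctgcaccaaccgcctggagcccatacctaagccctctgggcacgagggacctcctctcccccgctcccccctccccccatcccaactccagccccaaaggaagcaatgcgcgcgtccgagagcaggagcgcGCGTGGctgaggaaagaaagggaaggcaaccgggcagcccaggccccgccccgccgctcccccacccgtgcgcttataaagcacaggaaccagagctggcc

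The motifs, searched on both strands, were TGATGNAA, the composite element of ATF4 dimers, ACGTG and GCGTG, the cores of the hypoxia response element, CCACG, part of the endoplasmic reticulum stress element, and TGACGTCA, the cAMP response element. In all 3 runs GCGTG on the plus strand overlapped CCACG on the minus strand, from -222 in STC2, from -225 in ADM2 and from -101 in ADM, counted back from the start. STC2 held GCGTG at 2 further places on the minus strand, which overlap in 1 base. TGATGNAA, ACGTG and TGACGTCA were in none of these windows, nor in the window of GDF15, which held no match to any motif. Among 35116 promoter windows of the same length, 32.2% held GCGTG, 33.5% CCACG, 18.5% ACGTG, 3.14% TGATGNAA and 1.65% TGACGTCA. The windows of STC2, ADM2 and ADM had a GC content of 63.6%, 78.8% and 68%, against a median of 58% over all windows. The shares were not matched for GC content. These matches describe letters in 250 bases and say nothing of binding.

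Library totals ran from 34072107 to 35318111 counts, and levels are given as TMM-scaled CPM, that is counts relative to library size. Of 8 markers of the line, 7 were well above 0 in all libraries, including VIM, KRT8, KRT18 and the neurofilaments NEFL and NEFM, and KRT19 had no counts. Of mature kidney markers, UMOD, AQP2 and SLC12A1 had 0 counts in all libraries. The 6 endothelial markers summed to 0.0285 to 0.309 CPM in vehicle, 0.224 to 0.289 with ISRIB, 0.175 to 0.353 with A8 and 0.0626 to 0.223 with both, with PECAM1, TEK and EMCN at 0. The 6 immune markers summed to 0.313 to 0.45, 0.531 to 0.664, 0.379 to 0.53 and 0.564 to 0.624 CPM in the same order, with PTPRC and CD3E at 0. The 6 fibroblast markers summed to 18.5 to 21.4, 17.5 to 18.7, 15.8 to 17.8 and 17.6 to 19.4 CPM, of which COL1A1 alone made 15.7 to 21.2, with COL1A2 at 0. The part of these markers in the results was not tested. In bulk RNA, fewer expressing cells and less RNA per cell cannot be told apart.

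Per kilobase of the longest GENCODE transcript, the vehicle level was highest for STC2, at 5.65 CPM per kb (5.44 to 5.85 over 3 libraries), followed by VEGFA at 4.28 (3.96 to 4.66) and ADM at 2.67 (2.38 to 2.83). The other 3 genes were far lower on the same scale, at 0.229 for GDF15 (0.0712 to 0.404), 0.168 for ADM2 (0.16 to 0.178) and 0.129 for STC1 (0.125 to 0.132). Ranges did not overlap between STC2, VEGFA and ADM, while that of GDF15 covered those of ADM2 and STC1. With A8 the level of STC2 was 10.1 CPM per kb (9.24 to 11.7), above the 4.95 of VEGFA (4.46 to 5.81). With ISRIB alone STC2 at 3.99 and VEGFA at 4.06 were level within their ranges (3.91 to 4.07 and 3.68 to 4.43). The transcript lengths come from a later genome build than the counts, so the order is approximate, and with the shortest transcript ADM2 stood above GDF15 in vehicle. The ranges hold the spread between libraries alone and not that of length. Transcripts of STC2 run from 473 to 5353 bases and those of VEGFA from 336 to 3535.

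**Figure D1:**
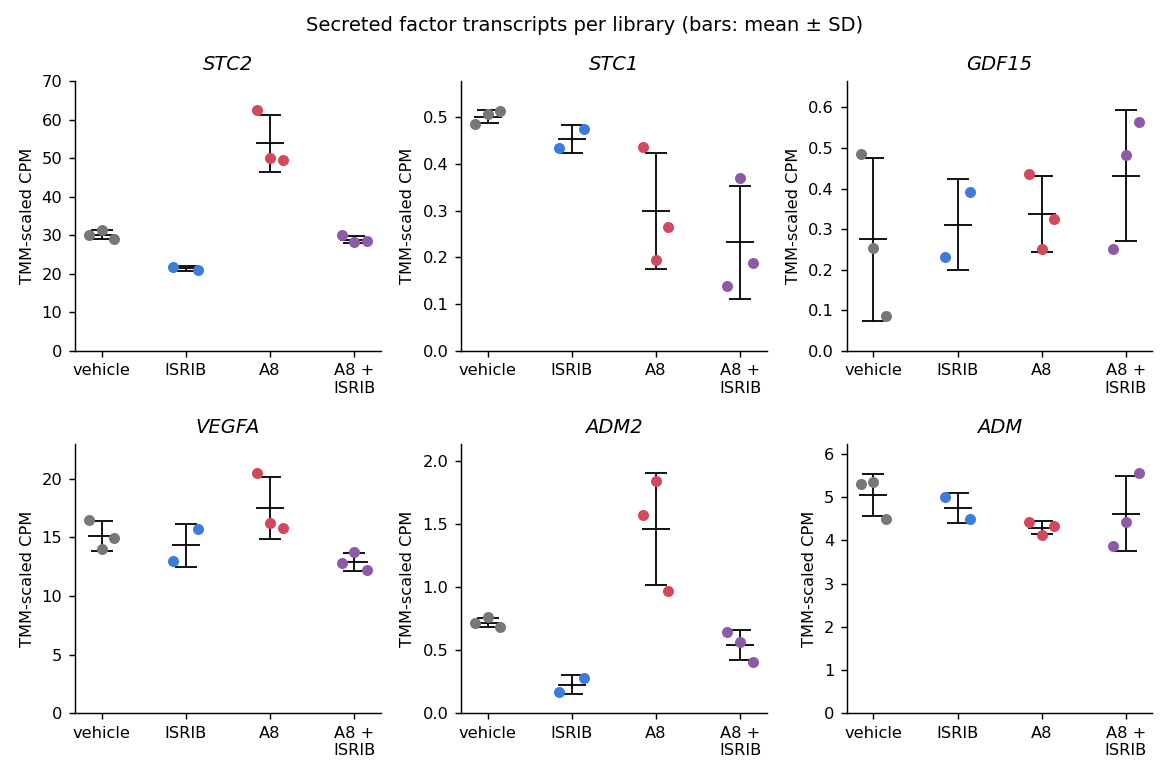
TMM-scaled CPM on a linear axis from 0 for each secreted factor, by treatment group, with a point for each library and bars for mean ± SD (n = 3, and n = 2 for ISRIB). STC2 and ADM2 are highest with A8 and lowest with ISRIB alone, while GDF15 overlaps in all groups and the 3 vehicle libraries of STC1 lie above all others. STC1 had only 5 to 18 counts per library.

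Among these genes only STC2 passed the test with A8. STC2 measured 30.2, 31.3 and 29.1 CPM in vehicle and 62.6, 50 and 49.5 CPM with A8. The lowest A8 library lay well above the highest vehicle library, and A8 1 stood above the other two. Vehicle averaged 30.2 ± 1.11 CPM and A8 54 ± 7.41 CPM (SD, n = 3 in either group). STC2 thus rose 1.79-fold with a 95% interval of 1.57 to 2.03, or by 0.84 in log2 units with an SE of 0.09 (edgeR, adjusted p = 0.000131). This 1 of 6 genes called higher stands against 0.0834% of all genes tested, and none of the 6 was called lower, against 0.0577%. Without A8 1 the log2 fold change was 0.72 and the call held. The authors' deposited table gave 0.84 with an adjusted p of 4.44e-15, in a table with 0.336% of genes higher.

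ADM2 had a larger fold change than STC2 but far fewer counts. It measured 0.713, 0.76 and 0.683 CPM in vehicle (24 to 27 counts) and 1.57, 1.84 and 0.971 CPM with A8 (33 to 66 counts). Each A8 library was above each vehicle library, and A8 3 was the lowest of the 3. The means were 0.719 ± 0.0384 and 1.46 ± 0.446 CPM (SD, n = 3 each), and the change was 1.02 in log2 units (95% interval 0.38 to 1.67). It did not pass the adjustment over all genes (unadjusted p = 0.00376, adjusted p = 0.249 in edgeR), and 10.2% of all genes had an unadjusted p under 0.05. The authors' deposited table gave a log2 fold change of 1.03 with an adjusted p of 0.0842.

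The other 4 genes were not called with A8. VEGFA measured 16.5, 14 and 14.9 CPM in vehicle and 20.5, 16.2 and 15.8 CPM with A8, and the groups overlapped. A8 1 was again the highest library, and the log2 fold change was 0.21 (95% interval -0.03 to 0.45, adjusted p = 0.554 in edgeR). Without A8 1 it was 0.08. ADM measured 5.31, 5.35 and 4.5 CPM in vehicle and 4.43, 4.13 and 4.33 CPM with A8, all lower than in vehicle, with a log2 fold change of -0.23 (95% interval -0.54 to 0.07, adjusted p = 0.617 in edgeR). The vehicle libraries spanned more than the difference between the means.

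STC1 and GDF15 were near the limit of what this depth can show. STC1, the paralogue of STC2, had 17, 18 and 18 counts in vehicle (0.485, 0.506 and 0.513 CPM) and 15, 7 and 9 counts with A8 (0.437, 0.195 and 0.265 CPM). Its A8 libraries lay below the vehicle libraries, opposite in sign to STC2, and the change was -0.74 in log2 units (95% interval -1.66 to 0.18, adjusted p = 0.587 in edgeR). GDF15 had 17, 9 and 3 counts in vehicle and 15, 9 and 11 with A8. Its vehicle libraries alone spanned 0.0854 to 0.485 CPM, more than the distance between any of its group means, and the change was 0.29 in log2 units (95% interval -0.87 to 1.45). Leaving out vehicle 1 moved it to 0.97 and leaving out vehicle 3 to -0.13. The interval of GDF15 covers both a fall and a rise, so neither was shown. Its coefficient of variation in vehicle was 73.1% beside 32.2% from counting alone. In all, libraries of A8 and vehicle did not overlap for 2 genes on the higher side (STC2 and ADM2, against 8.47% of all genes) and 2 on the lower side (STC1 and ADM, against 8.13%). In vehicle the coefficient of variation was 2.87% for STC1 and 5.34% for ADM2, beside 23.8% and 19.9% from counting alone. These vehicle libraries lay closer together than counting noise would give, so a lack of overlap with them does not measure reproducibility.

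**Figure D2:**
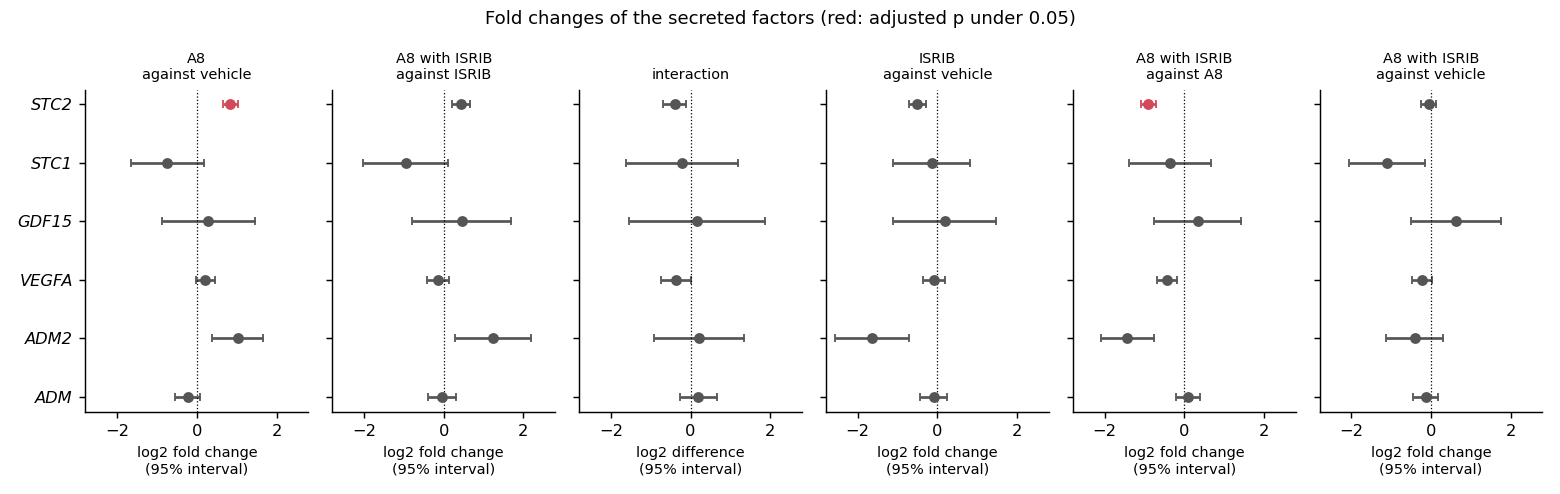
Log2 fold changes (points) with 95% intervals (bars) of the secreted factors in the 6 comparisons, from the fit across all genes, with red for an adjusted p under 0.05. STC2 is red in A8 against vehicle (0.84) and in A8 with ISRIB against A8 (-0.90), and the intervals of STC1 and GDF15 are the widest.

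With ISRIB added to A8, STC2 was lower than with A8 alone and its libraries overlapped vehicle. With both compounds STC2 measured 30.1, 28.3 and 28.4 CPM, below every A8 library. Against A8 alone STC2 fell to 0.536 of its level (95% interval 0.471 to 0.609), a log2 value of -0.90 with an SE of 0.09 (edgeR, adjusted p = 2.13e-05). This was the only one of the 6 called lower, against 0.16% of all genes tested, and none was called higher, against 0.0192%. Against plain vehicle STC2 differed by -0.06 in log2 units (95% interval -0.25 to 0.12). No secreted factor was called in that comparison with vehicle, against 0.0192% of all genes by edgeR, while an unadjusted p under 0.05 was reached by 1 of the 6 (STC1, log2 value -1.10, 95% interval -2.05 to -0.14) and by 7.7% of all genes. DESeq2 gave no adjusted p there for STC1, GDF15 and ADM2, and called none of the other 3, against 0.0839% of genes higher and 0.159% lower. STC1, VEGFA and ADM2 lay below vehicle without overlap, 3 of 6 against 6.57% of all genes. The 95% intervals of VEGFA (log2 value -0.23, interval -0.47 to 0.02) and ADM2 (-0.41, interval -1.12 to 0.31) included no change. The vehicle libraries of STC1 and ADM2 are those that lay closer together than counting noise would give.

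ADM2 measured 0.641, 0.567 and 0.407 CPM with A8 and ISRIB, below every A8 library and every vehicle library. Against A8 its log2 fold change was -1.43 (95% interval -2.10 to -0.76), the largest of the 6 in size, and it was not called (unadjusted p = 0.000312, adjusted p = 0.145 in edgeR). VEGFA measured 12.8, 13.7 and 12.2 CPM with both, below every A8 library, with a log2 fold change of -0.44 (95% interval -0.68 to -0.19, adjusted p = 0.365 in edgeR). Libraries of these groups did not overlap for STC2, ADM2 and VEGFA on the lower side, 3 of 6, against 5.98% of all genes, and the same 3 had an unadjusted p under 0.05, against 5.91%. ADM at 3.88, 4.43 and 5.57 CPM and GDF15 at 0.251, 0.482 and 0.564 CPM overlapped the A8 libraries. STC1 had 5, 13 and 6 counts with both compounds (0.139, 0.369 and 0.188 CPM) and overlapped them too. A8 libraries enter both this comparison and A8 against vehicle, so a deviation of those libraries acts on both with opposite sign.

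ISRIB was also given without A8. STC2 measured 21.8 and 20.9 CPM, lower than in any vehicle or A8 library, a mean of 21.4 ± 0.628 CPM (SD, n = 2). Its log2 value was -0.50 (SE 0.10, 95% interval -0.71 to -0.29), with an unadjusted p of 0.000127 and an adjusted p of 0.237 in edgeR. The authors' deposited table listed the same fold change with an adjusted p of 0.0229, in a table with 0.0436% of genes lower, and the DESeq2 Wald test gave an adjusted p of 0.00506, with 0.485% of genes lower. The call thus depended on the test. ADM2 had 6 and 10 counts with ISRIB (0.173 and 0.28 CPM), below every other library, and a log2 fold change of -1.65 (95% interval -2.58 to -0.72, adjusted p = 0.342 in edgeR). By edgeR 0 of the 6 and 0% of all genes were called, while an unadjusted p under 0.05 was reached by 2 of the 6 and by 9.58% of all genes. Neither ISRIB library overlapped vehicle for STC2, ADM2 and STC1 on the lower side, 3 of 6 against 15.1% of all genes. For ADM2 and STC1 the vehicle libraries again lay closer together than counting noise would give.

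VEGFA (13 and 15.7 CPM), ADM (5 and 4.5 CPM) and GDF15 (0.231 and 0.391 CPM) overlapped vehicle with ISRIB alone. STC1 measured 0.433 and 0.475 CPM (15 and 17 counts), just under its vehicle libraries, with a log2 fold change of -0.14 and a wide 95% interval of -1.11 to 0.83. ISRIB b and vehicle 1 had the same count of 17, so their lack of overlap came from library scaling. Across genes, the values for ISRIB against vehicle had a Spearman correlation of -0.47 with transcript GC content, over 13688 genes that are not independent replicates. The trend was not confined to ISRIB alone. The correlation was -0.29 for A8 against vehicle, -0.18 for A8 with ISRIB against vehicle and 0.15 for A8 with ISRIB against A8. For A8 with ISRIB against ISRIB it was 0.32, and for the interaction described below 0.45. The longest transcript of ADM2 has a GC content of 63.1% and that of STC2 one of 51.7%. With the GC trend of each library removed, which was decided on once the values were known, the log2 fold change of ADM2 was -1.51 and that of STC2 remained -0.50. After the same step the values for A8 against vehicle were 1.10 for ADM2 and 0.83 for STC2.

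The effect of A8 in the presence of ISRIB was read from the groups with both compounds and with ISRIB only, none of whose libraries enter A8 against vehicle. STC2 was higher in each of the 3 libraries with both compounds than in either ISRIB library, with a log2 value of 0.44 (SE 0.10, 95% interval 0.22 to 0.65) or 1.35-fold. It was not called (unadjusted p = 0.000476, adjusted p = 0.251 in edgeR), while the DESeq2 Wald test gave an adjusted p of 0.0214, with 0.45% of genes called higher. ADM2 was higher in each library too, with a log2 fold change of 1.24 (95% interval 0.28 to 2.20, adjusted p = 0.516 in edgeR), beside 1.02 without ISRIB. These 2 of 6 genes without overlap stand against 12.8% of all genes, and STC1 was the only one without overlap on the lower side, with a log2 fold change of -0.96 (95% interval -2.02 to 0.11), against 12.3%. By edgeR none of the 6 was called, against 0.0128% of all genes, and 2 of 6 had an unadjusted p under 0.05, against 8.32%.

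The interaction measures the difference between the A8 effects with and without ISRIB. For STC2 it was -0.40 (SE 0.13, 95% interval -0.68 to -0.12, adjusted p = 0.46 in edgeR), and for ADM2 it was 0.22 with a wide 95% interval of -0.92 to 1.35. None of the 6 interactions was called by edgeR, against 0.0257% of all genes, and 1 had an unadjusted p under 0.05, against 8.48%. DESeq2 gave an adjusted p for STC2 and VEGFA alone and called neither, against 0.435% of genes higher and 0.0909% lower. A loss of the A8 effect on ADM2 under ISRIB was therefore not shown, and neither was its persistence.

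Both A8 effects and both ISRIB effects were also averaged within the same fit, a step chosen after the values were seen. Averaged over A8 states, STC2 was lower with ISRIB, at -0.70 in log2 units with an SE of 0.07 (edgeR, adjusted p = 3.03e-05), and ADM2 was lower at -1.54 with an SE of 0.27 (edgeR, adjusted p = 0.024). These 2 of 6 genes called lower stand against 0.154% of all genes tested. The call of ADM2 was lost when vehicle 2, ISRIB a, ISRIB b, A8 1, A8 2 or A8 with ISRIB 2 was left out, with adjusted p from 0.0674 to 0.251 in edgeR and log2 fold changes from -1.73 to -1.39. Averaged over ISRIB states, STC2 was higher with A8 by 0.64 with an SE of 0.07 (edgeR, adjusted p = 0.000194), against 0.141% of all genes called higher. ADM2 had a value of 1.13 (95% interval 0.56 to 1.71, adjusted p = 0.12 in edgeR) and STC1 one of -0.85 (95% interval -1.55 to -0.15, adjusted p = 0.401 in edgeR), neither called. For VEGFA the averaged A8 effect was 0.03 with a 95% interval of -0.15 to 0.21, and for ADM it was -0.14 with one of -0.37 to 0.09.

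In order of level, STC2 stood highest with A8, then in vehicle, with both compounds and with ISRIB, and only vehicle and both compounds overlapped. ADM2 followed the same order, with no overlap between any neighbours. STC1 was highest in vehicle, then with ISRIB, with A8 and with both, and the last 3 groups overlapped with their neighbours. VEGFA, ADM and GDF15 overlapped between all neighbours in their order.

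The 5 genes most like STC2 over the 11 libraries were PCK2, SESN2, ASNS, CTH and DDIT4. Likeness was the root mean square difference in log2 CPM after each gene was centred on its mean, among the 10906 genes whose mean log2 CPM reached 2. PCK2, the mitochondrial PEP carboxykinase, was nearest at 0.111, followed by SESN2, a brake on mTORC1, at 0.126, and ASNS, the asparagine synthetase, at 0.146. CTH, which makes cysteine, was at 0.211 and DDIT4, another brake on mTORC1, at 0.214. The median difference over all genes ranked was 0.492, about the spread of STC2 itself around its mean (0.477). With A8 their log2 fold changes were 0.88 for PCK2, 0.63 for SESN2, 0.70 for ASNS, 0.85 for CTH and 0.67 for DDIT4, beside 0.84 for STC2. These genes were chosen for following STC2 over the same libraries, so values near its own were fixed by that choice. With A8 and ISRIB against ISRIB they were 0.23, 0.23, 0.14, 0.04 and 0.23, beside 0.44 for STC2.

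**Figure D3:**
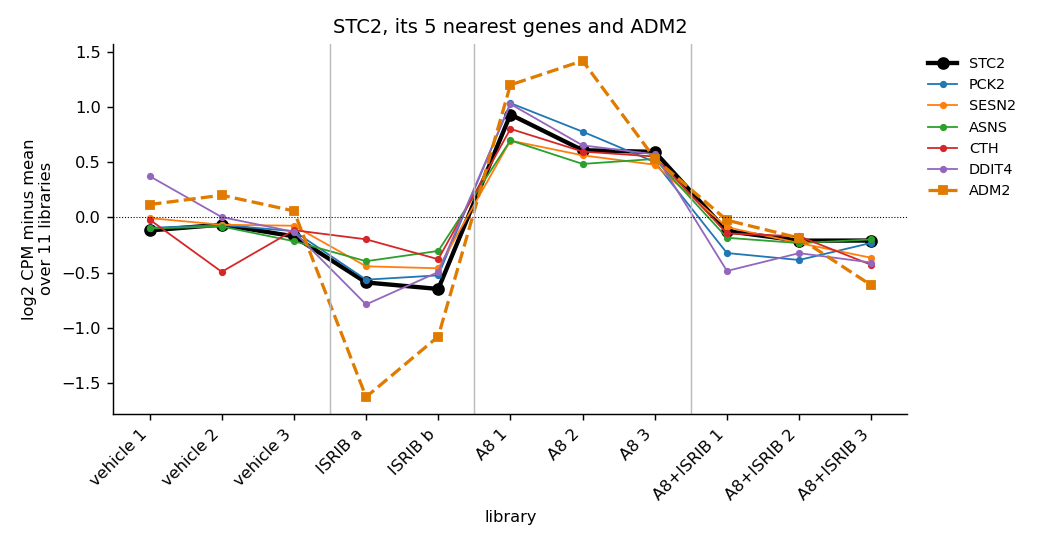
Log2 CPM of STC2, its 5 nearest genes and ADM2 in each of the 11 libraries, minus the mean of each gene over all libraries, with lines joining the points of a gene. The nearest genes follow STC2 within root mean square differences of 0.111 to 0.214, and ADM2, which was not chosen by likeness, lies further from 0 than STC2 in both ISRIB libraries and in A8 1 and A8 2, but not in A8 3.

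The list of integrated stress response genes holds regulators such as ATF4 and known targets. Of 16 such genes tested, 7 were called higher with A8, 0 lower and 9 were not called, against 0.0834% of all genes higher, with a median log2 fold change of 0.50 beside 0.01 for all genes. The list was drawn up with earlier results of these data known and holds the genes nearest to STC2. Its shares of calls are therefore not independent support. CHAC1, which degrades glutathione, had the largest value at 1.70, and PSAT1, of serine synthesis, was also called (0.53). Under A8 with ISRIB against A8, 8 of the 16 were called lower and 0 higher, against 0.16% of all genes lower, with a median of -0.60, CHAC1 at -2.05, PSAT1 at -0.80, ASNS at -0.78 and SESN2 at -0.80. With ISRIB alone 0 of 16 were called and all 16 were below 0, while 50.5% of all genes were above 0, with a median of -0.27 in the list and ATF4 itself at -0.33 (adjusted p = 0.368 in edgeR).

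The hypoxia genes, which share VEGFA and ADM as partners in that pathway, gave no call. Of 22 listed genes 21 were tested, CA9 having no counts, and 0 were called in any comparison. The median log2 fold change with A8 was -0.04 with 8 above and 13 below 0, and with A8 and ISRIB against A8 it was 0.01. LDHA and PGK1, the most abundant, had values of -0.04 and 0.01 with A8.

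Receptors of these ligands were present only in part. GFRAL and RAMP3 had 0 counts in every library, which allows up to 0.088 CPM in the shallowest, and the other 8 of 10 were tested and not called in any comparison. NRP2 (log2 fold change 0.03 with A8) and NRP1 (0.12) were the most abundant, FLT1 averaged 13.3 CPM in vehicle, and CALCRL had 3 to 14 counts per library beside 128 to 216 for RAMP2. KDR, the main receptor of VEGFA, had only 3 to 31 counts per library. Of 16 processing enzymes and binding partners 11 were tested and 0 called, with a median of 0.07 with A8. PAM, which amidates adrenomedullins, averaged 48.3 CPM in vehicle and 52.1 CPM with A8, and the convertase FURIN 70 and 72.2 CPM. PAPPA, the target of STC2, had 0 to 1 counts per library.

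No gene was called in the lists of other secreted factors. Of 18 relatives of the 6 genes 13 were tested and 0 called, with a median log2 fold change of -0.05 with A8, BMP7 at -0.11 and VEGFB at -0.04. Of 26 other stress-induced secreted factors 12 were tested and 0 called, with a median of -0.13 with A8 and 0.10 with A8 and ISRIB against A8. MANF and CRELD2, secreted proteins of endoplasmic reticulum stress, had values of -0.28 (adjusted p = 0.207 in edgeR) and -0.22 (adjusted p = 0.335 in edgeR) with A8. IGFBP1 and EREG had 0 counts in all libraries, and the cytokines IL6, IL8, IL11 and LIF had at most 4, 8, 7 and 10 counts in any library.

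**Figure D4:**
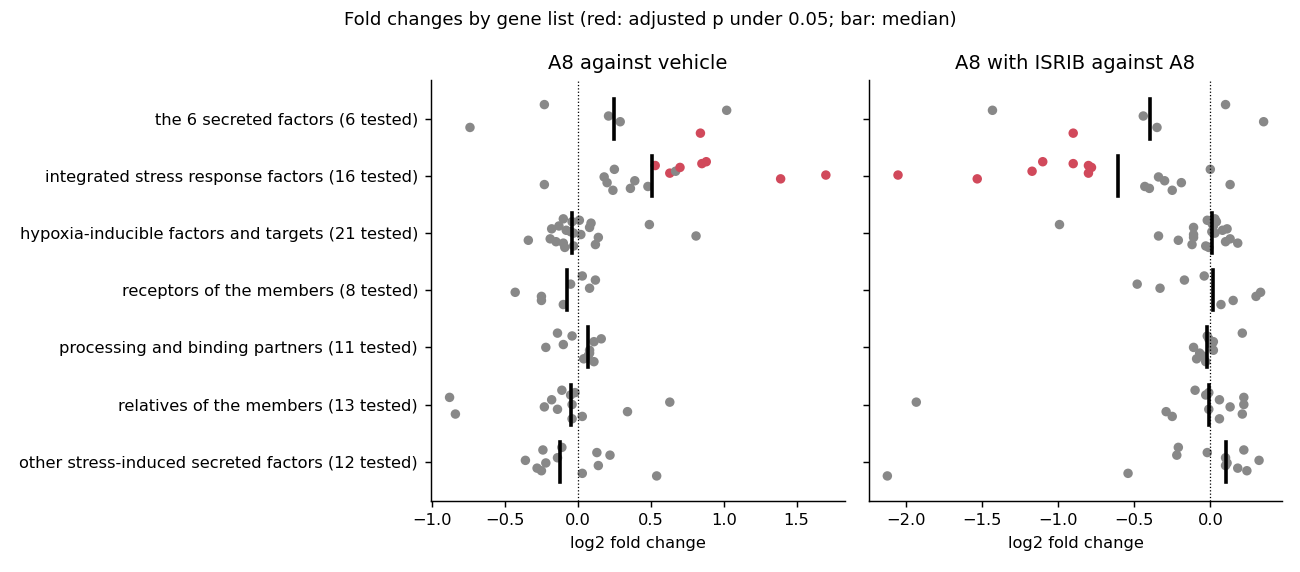
Log2 fold changes of the tested genes of each list in A8 against vehicle (left) and in A8 with ISRIB against A8 (right), with a point for each gene, red for an adjusted p under 0.05 and a bar for the median of the list. Red points lie in the lists of the secreted factors and of the integrated stress response, whose medians are 0.50 on the left and -0.60 on the right.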

How the data were processed

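Polyadenylated RNA of 11 HEK293T samples was sequenced in strand-specific libraries with dUTP marking, per the labels' protocols. The authors deposited whole-number counts per gene symbol, on GRCh37 with DESeq and DESeq2 named, per the submitters' processing notes. For the aligner, the counter with its strand setting and the annotation, nothing is given in the sources used here. The authors also deposited 3 tables with mean normalized counts (a signal), log2 fold changes, Wald statistics (a score) and p-values, per the file headers.

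Differential expression was tested with edgeR 4.0.16 in R 4.3.3 (filterByExpr, TMM, glmQLFit and glmQLFTest on all 11 libraries), with Benjamini-Hochberg adjustment over 15591 genes and a call at an adjusted p under 0.05. Standard errors come from the quasi-likelihood F, and log2 CPM used a prior count of 2. Alternatives were DESeq2 1.42.0 (size factors, Wald test), other count filters, a replicate block, only the groups compared and each library left out. Replicates differed by more than counting noise (chi-square per degree of freedom 7.55 to 38.3). The design text calls them biological.

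The 6 genes, the 6 gene lists (108 genes) and the naming rule were chosen with earlier results of these data known. The rule names up to 4 called genes per list and comparison, otherwise the 2 most abundant, and the 5 genes nearest to a called member; not all are printed, and other genes were chosen after their values were seen. Transcript lengths and GC are from GENCODE 29 (GRCh38). Promoter sequences are from RefSeq (GRCh38.p14), matched by symbol, and 250 bases were used. Windows were kept for 4 of the 6 genes. Any entry on the chromosome of STC1 was left out of the search of these genes, and no entry was matched for VEGFA. The GDF15 locus also holds MIR3189, and VEGFA an antisense gene, whose reads the counts may not separate. The scripts were tested on simulated data.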

Additional observations from a re-analysis of the deposited data

How the results depend on the processing

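STC2 kept its call with A8 and with A8 and ISRIB against A8 under all 18 alternatives (log2 fold changes of 0.72 to 0.90 and of -0.96 to -0.78). For A8 against vehicle, leaving out a library of another group left the value at 0.84, so those refits tested the call alone. With no filter on low counts, 1 of the 6 genes was called with ISRIB against vehicle and 1 with A8 and ISRIB against ISRIB (STC2, adjusted p = 0.00886 and 0.032 in edgeR), 2 with A8 and ISRIB against A8 (with ADM2, adjusted p = 0.0232) and 2 in the averaged A8 effect (with ADM2, adjusted p = 0.032). The DESeq2 Wald test called 1, STC2, in each of the first pair, and gave no adjusted p for STC1, GDF15 and ADM2 in any of the 6 designed comparisons, nor for ADM with ISRIB against vehicle and in the interaction. It gave fold changes for these but could not call them. The averaged ISRIB effect held 1 to 2 calls when a library was left out. The cause of these differences was not tested. Same-numbered libraries had correlations of -0.133 to 0.138 in their deviations, and 3 of 9 libraries had their highest correlation with a library of their own number, so no pairing was assumed. A replicate block over the 9 numbered libraries left 1, 0 and 1 calls in the 3 comparisons it covers. Signs changed in 25 of 799 refitted values, none of them a value called in its own comparison. The changed signs include 2 values of the ADM2 interaction (-0.08 to 0.60 over the alternatives). The 799 values also hold refits without a library outside the comparison, which could hardly change a sign. The 24 group levels moved by less than 1 SD with plain library totals. Depth limits STC1, GDF15 and ADM2, with 3 to 66 counts per library.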

Other observations

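Among the other secreted factors, 2 low-count genes shared the order of ADM2 in their group means, FGF21 in full and INHBE in part. Both were picked after their values were seen. FGF21, a hormone of the fasting and stress response, had 6, 0 and 10 counts in vehicle, 2 and 0 with ISRIB, 10, 4 and 9 with A8 and 3, 2 and 0 with both. INHBE, an activin subunit made in stressed cells, had 14, 5 and 7 counts in vehicle, 4 and 7 with ISRIB, 8, 20 and 12 with A8 and 3, 0 and 7 with both. Their log2 fold changes for A8 with ISRIB against A8 were -2.12 (SE 0.98, adjusted p = 0.838 in edgeR) and -1.93 (SE 0.72, adjusted p = 0.684 in edgeR), and neither was called.

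Other values picked in the same way lay on the side opposite to STC2. PGF, a placental relative of VEGFA, had means of 3.15 CPM (vehicle) and 1.76 CPM (A8), with a log2 value of -0.84 and an SE of 0.19 (edgeR, adjusted p = 0.0987). SDF2L1, a factor of endoplasmic reticulum protein folding, averaged 57.1 and 44.5 CPM, a log2 value of -0.36 with an SE of 0.09 (edgeR, adjusted p = 0.127). RET, which carries the GDF15 signal with GFRAL, averaged 4.01 and 2.98 CPM, a log2 value of -0.43 with an SE of 0.17 (edgeR, adjusted p = 0.404).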
